A study of Mus musculus with 2 samples.

Results

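The genes described here are 49 nuclear-encoded subunits of respiratory chain complexes I to IV, of 18193 genes named on the array. They were given as a list of names that leaves out some subunits of complexes I, III and IV, and every probe set annotated to one of them alone was taken. Of the 49, 47 had at least 1 such probe set, 102 probe sets together, and 46 gave a value. Ndufs6 had only a probe set shared with Ndufs6b, Cox7b had none listed, and both probe sets of Cox7c lay under the floor of each array. There were 25 listed members for complex I, 4 for complex II, 7 for complex III and 13 for complex IV. Cox6a2, Cox7a1 and Cox8b, the complex IV isoforms of heart and skeletal muscle, were kept apart from the 46 widely expressed members.

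The study compared a pool of internal carotid arteries with a pool of external carotid arteries, both microdissected from mouse embryos of the outbred ICR stock at E13.5. No genetic change or treatment is labelled for either pool, and the design text gives 22 embryos without saying whether both pools share them. Each pool was run on 1 Affymetrix array, so no value has a replicate and no test between the pools could be made. RNA went through a pair of oligo-dT primed amplification rounds, which favour the 3′ ends of transcripts.

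The respiratory chain passes electrons from NADH and succinate to oxygen in the inner mitochondrial membrane. Complex I takes electrons from NADH, complex II from succinate, complex III hands them to cytochrome c, and complex IV, cytochrome c oxidase, reduces oxygen. Complexes I, III and IV pump the protons that drive ATP synthase. Most subunits are made in nearly every cell, but several small complex IV subunits come as pairs of genes, one widely expressed and one turned on as striated muscle matures.

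Promoter sequences are shown for Cox7a1 and Cox8b with their widely expressed partners Cox7a2 and Cox8a, so that these pairs can be compared on something other than array signal. The Cox6a1 window is shown as an example with NRF1 letters, and Cox6a2 had no match in the promoter table. A RefSeq table of the GRCm38.p6 build held the 250 bases before and 50 after the annotated start for 38 of the 49 members, 36 of them widely expressed. Capitals mark every match, on either strand, to the letters GCATGCGC (NRF1) or AAGATGGC (YY1). They also mark CGGAAG, the core letters of the ETS family that includes GABP. Marked in the same way were the E-box, written CANNTG, the TATA motif, which was read as TATAAA in this search, and the MEF2 motif, which had no match in these windows. Overlapping matches run together. Cox6a1 lies at chr5:115348909-115349208 on the minus strand, Cox7a2 at chr9:79759804-79760103 on the minus strand and Cox8a at chr19:7217567-7217866 on the minus strand. Cox7a1 lies at chr7:30183921-30184220 on the plus strand and Cox8b at chr7:140900397-140900696 on the minus strand. Each is given 5′ to 3′.
Cox6a1: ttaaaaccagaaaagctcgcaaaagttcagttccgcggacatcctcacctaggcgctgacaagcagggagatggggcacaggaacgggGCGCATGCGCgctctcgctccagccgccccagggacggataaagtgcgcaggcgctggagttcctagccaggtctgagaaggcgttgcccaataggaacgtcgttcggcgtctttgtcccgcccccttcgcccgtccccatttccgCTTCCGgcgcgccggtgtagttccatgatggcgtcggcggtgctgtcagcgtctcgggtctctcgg
Cox7a2: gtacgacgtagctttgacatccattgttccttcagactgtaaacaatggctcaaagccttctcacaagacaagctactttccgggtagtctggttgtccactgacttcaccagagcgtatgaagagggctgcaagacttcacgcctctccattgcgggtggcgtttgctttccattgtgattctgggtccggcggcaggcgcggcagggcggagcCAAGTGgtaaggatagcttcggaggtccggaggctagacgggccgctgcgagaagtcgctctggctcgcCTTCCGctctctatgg
Cox8a: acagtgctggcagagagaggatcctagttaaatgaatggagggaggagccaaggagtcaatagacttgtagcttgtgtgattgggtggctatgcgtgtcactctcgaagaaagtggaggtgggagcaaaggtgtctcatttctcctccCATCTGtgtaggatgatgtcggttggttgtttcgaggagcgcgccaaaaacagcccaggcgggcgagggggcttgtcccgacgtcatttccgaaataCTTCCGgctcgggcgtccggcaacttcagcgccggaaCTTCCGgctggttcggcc
Cox7a1: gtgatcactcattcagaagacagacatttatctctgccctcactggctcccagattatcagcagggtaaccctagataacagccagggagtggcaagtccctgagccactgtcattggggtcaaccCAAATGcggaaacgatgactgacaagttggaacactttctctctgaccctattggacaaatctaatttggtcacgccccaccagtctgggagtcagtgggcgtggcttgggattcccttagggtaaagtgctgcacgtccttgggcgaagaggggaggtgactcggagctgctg
Cox8b: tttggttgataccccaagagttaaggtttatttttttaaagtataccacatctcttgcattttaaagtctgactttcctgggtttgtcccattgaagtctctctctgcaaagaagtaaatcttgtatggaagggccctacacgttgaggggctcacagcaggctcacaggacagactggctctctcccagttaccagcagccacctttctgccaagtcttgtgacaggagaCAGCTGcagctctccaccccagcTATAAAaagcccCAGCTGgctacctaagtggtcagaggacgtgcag
The 3 widely expressed genes hold the ETS letters, and Cox6a1 also holds the NRF1 letters, a palindromic run matched on both strands. The printed windows of Cox7a1 and Cox8b hold neither, and Cox8b holds a TATA match and a pair of E-box matches. E-box matches are not particular to the muscle isoforms, since Cox7a2 and Cox8a hold them as well as Cox7a1. CpG dinucleotides numbered 32 in the Cox6a1, 20 in the Cox7a2 and 19 in the Cox8a window, against 7 in that of Cox7a1 and 2 in that of Cox8b. Over the 36 widely expressed members the median was 19.5 CpG, from 5 in Cox7b to 39 in Ndufv2. The median of 27025 genes in the table was 7 and that of the 10010 with an array value was 20.

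The ETS letters were in the promoters of 15 of the 36 widely expressed members (41.7%), against 18.8% of all 27025 genes and 32.5% of the 10010 with an array value. The NRF1 letters were in 5 (13.9%), namely Cox6a1, Ndufa6, Ndufa8, Sdhb and Uqcrc1, against 3.05% of all genes and 5.69% of those with an array value. YY1 letters were in 7 (19.4%), 6 of them genes of complex I accessory subunits, against 3.19% and 4.98%. E-box matches were in 25 of the 36 (69.4%), below the 75% of all genes and above the 67.8% of those with an array value. TATA matches were in 4 (11.1%), likewise between 15.7% and 9.17%. The MEF2 motif was in none, against 3.70% and 2.22%. A match is a description of the letters in this window and not evidence of binding.

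Most subunits of the respiratory chain gave slightly lower signals in the external than in the internal carotid pool, and nearly all differences were small. The ratio is external over internal signal on the log2 scale, from each gene's brightest probe set. It is used where both signals reach the floor, the array median of 47.5 for internal and 52.3 for external. Where only one signal reaches it, that signal over the other array's floor gives a bound. The 43 widely expressed members with a value had a median log2 ratio of -0.26, or 1.20-fold higher in the internal pool, and ran from -0.68 to 0.33. Of these, 37 were below 0 and 6 above, whereas 43.7% of all 12419 genes with a value were below 0 and their median was 0.06. The spread between probe sets of one gene, a technical error on the same pair of arrays, had a pooled standard deviation of 0.34 over all genes and 0.24 over the members, and 28 of the 43 ratios were smaller in size than the former and 20 than the latter.

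At 2-fold, 1 of the 46 members was higher in the internal pool, Cox6a2, against 1.51% of all genes, and none was higher in the external pool, against 2.15%. At 1.5-fold the internal count was 3 of 46, with Ndufa10 and Cox8a added, against 5.44% of all genes, and the external count was 0, against 9.39%. The internal shares at both folds are near the background. Of the 43 widely expressed members, 41 were within 1.5-fold.

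**Figure D1:**
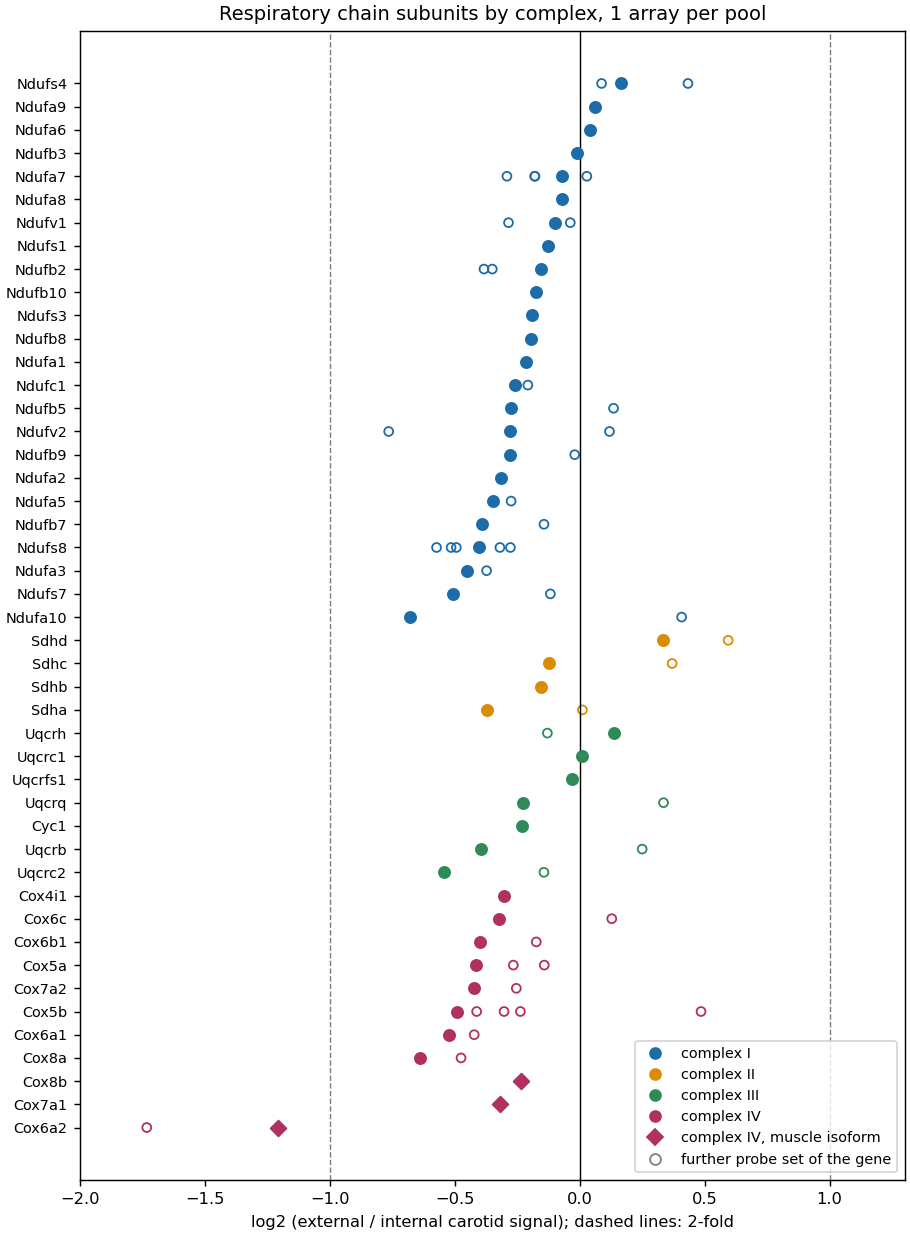
Log2 ratio of external over internal carotid signal for the 46 members with a value, grouped by complex. Filled symbols are each gene's brightest probe set, open circles its other probe sets with a value, diamonds the muscle isoforms, some values are bounds, and dashed lines mark 2-fold. The widely expressed members of complex IV all sit between -0.64 and -0.30, and only Cox6a2 lies beyond 2-fold.

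The size of the shift went with signal. When the genes measured on both arrays were divided by mean signal into 10 classes of like size, the median log2 ratio was 0.19 in the dimmest class and -0.20 in the brightest, and 28 of the 43 widely expressed members were in the brightest class. In that class 75.9% of all genes were below 0. The 28 members there had a median of -0.31, and 21 of them were below the class median of -0.20. In the next class 7 of 8 members were below its median of -0.05, while in the dimmer classes that held members, 3 of 7 were. Across the 43 members the Spearman correlation of ratio with mean log2 signal was -0.67, against -0.28 across 11255 genes, points that share both arrays and their scaling. The 18 bacterial hybridisation control probe sets, which are added to the labelled RNA before hybridisation, had a median log2 ratio of -0.45, with median signals of 1010.4 on the internal and 749 on the external array. The ratio of 3′ to 5′ control probe sets, a sign of RNA and amplification quality, also differed, at 4.41 internal and 3.53 external for Actb and 8.39 and 7.09 for Gapdh. The part of either difference in the members' shift was not tested.

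A loess fit of ratio on signal, subtracted from every gene, left the widely expressed members at a median of -0.08, with 33 below 0 and 10 above, where 48.4% of all genes were below 0. After quantile normalization the median was -0.09. The direction of the median was kept under both corrections and its size was smaller.

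**Figure D2:**
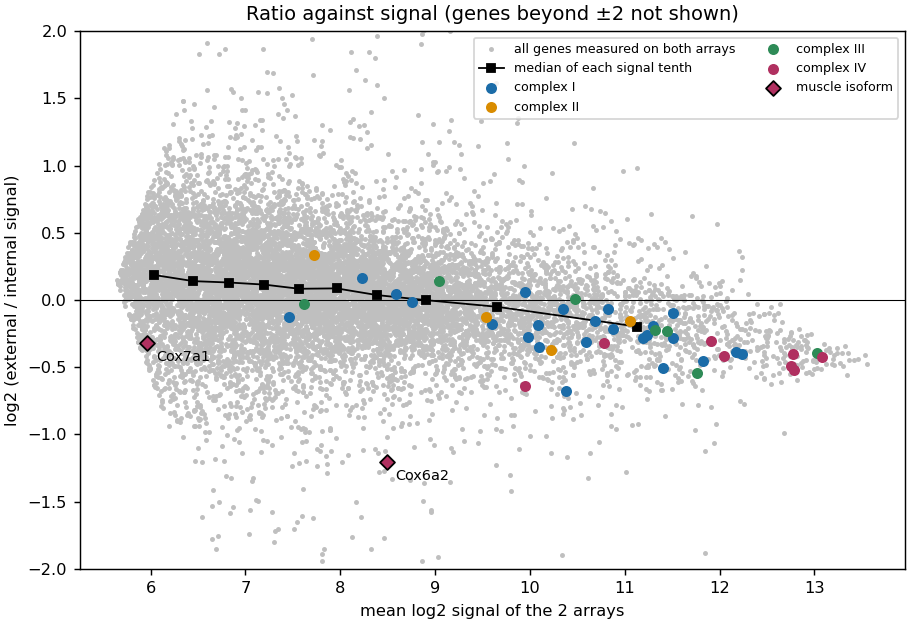
Log2 ratio of external over internal signal against mean log2 signal of the 2 arrays, for all genes measured on both (grey) and for the members by complex, with the median of each of the 10 signal classes as black squares. Most members lie at high signal, where the black line falls to -0.20, while Cox6a2, at -1.21, lies well below the median line at its signal.

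Complex I, the NADH dehydrogenase and largest complex of the chain, had a median of -0.21 over 24 members, with 21 below 0. The 6 core subunits that carry the flavin and iron-sulfur clusters or help form the quinone site had a median of -0.23, and all 6 were below 0. By brightest probe set, the largest core difference was that of Ndufs7, an iron-sulfur subunit next to the quinone site. It had a signal of 3232 in the internal and 2271 in the external pool (log2 ratio -0.51), and a dimmer probe set was at -0.12. Ndufs8, the partner of Ndufs7 in that region, read 5550 and 4197 (-0.40). The other 5 probe sets of Ndufs8 were also below 0, from -0.57, a bound, to -0.28. With the median over probe sets Ndufs7 was at -0.31 and Ndufs8 at -0.45. The core subunits thus shared a sign, though after loess the flavin-binding subunit Ndufv1 was at 0.11 and the other 5 remained below 0. Ndufv1 read 3009 internal and 2807 external (-0.10) at this probe set, which is open to cross-hybridisation. Its other probe sets were at -0.28 and -0.04, and at -0.10 and -0.04 after loess. Ndufs1 and Ndufv2, which carry clusters, were at -0.13 and -0.28, and Ndufs3 was at -0.19. The other probe sets of Ndufv2 disagreed, at 0.12 and -0.76.

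The 18 accessory subunits of complex I had a median of -0.21, with 15 below 0. Ndufa10, a subunit related to nucleoside kinases, was lowest of all widely expressed members, at 1681 internal and 1049 external, or 1.60-fold higher in the internal pool (-0.68). A second Ndufa10 probe set, barely above the floors at 49.9 and 66.2, pointed the other way at 0.41. The Ndufa10 difference thus rests on 1 of its probe sets. Ndufa3 read 4249 and 3106 (-0.45), and Ndufb7, a subunit on the outer side of the membrane arm, read 5294 and 4038 (-0.39). Both lay in the brightest signal class. At the other end, Ndufs4, an accessory subunit of the NADH-oxidising arm whose loss causes a fatal brain disease in mice, read 284 and 318 (0.16). All 3 of its measured probe sets were above 0, at 0.09, 0.16 and 0.43. Ndufa9, near the quinone site, read 969 and 1010 (0.06), and Ndufa6 read 378 and 389 (0.04), so these 3 members were the ones above 0. The other accessory subunits ranged from -0.35 for Ndufa5 to -0.01 for Ndufb3.

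Complex II, succinate dehydrogenase, also works in the tricarboxylic acid cycle, and all its 4 subunits are members. Their median was -0.14. Sdha, the flavoprotein that oxidises succinate, read 1359 internal and 1050 external (-0.37), while a further probe set, not open to cross-hybridisation by its suffix, read 814 and 820 (0.01). Sdhb, the iron-sulfur subunit, read 2251 and 2022 (-0.15). Of the membrane anchors, Sdhc read 775 and 712 (-0.12), with 0.37 at a dimmer probe set. The catalytic pair were thus near equal or slightly lower in the external pool. Sdhd, the other anchor, known in people for carotid body tumours when lost, had the highest ratio of any member, at 188 internal and 237 external (0.33). Its second probe set read 105 and 158 (0.59), so both were higher in the external pool, and after loess Sdhd remained highest at 0.26.

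Complex III, the cytochrome bc1 complex, had a median of -0.23 over 7 members, with 5 below 0. Its redox subunits differed little, with Cyc1, cytochrome c1, at 3013 internal and 2571 external (-0.23), and Uqcrfs1, the Rieske iron-sulfur protein, at 198 and 194 (-0.03). The paired core proteins differed from each other, as Uqcrc2 read 4201 and 2886 (-0.54) and Uqcrc1 read 1423 and 1431 (0.01). A dimmer Uqcrc2 probe set was at -0.14. Uqcrc2 was the lowest of this complex and Uqcrc1 among the 2 members above 0, with the hinge subunit gene Uqcrh at 0.14, or -0.13 at its other probe set. Uqcrb and Uqcrq, small subunits that contact cytochrome b, were at -0.40 and -0.23. Both were above 0 at a dimmer probe set, 0.25 for Uqcrb and 0.34 for Uqcrq.

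Complex IV had the lowest median of the 4 complexes, -0.42 over 8 widely expressed members, and all 8 were below 0. These nuclear subunits surround a catalytic core that mitochondrial DNA encodes. Cox8a, a small membrane subunit, was lowest at 1236 internal and 794 external, or 1.56-fold higher in the internal pool (-0.64). A second Cox8a probe set read 879 and 632 (-0.47), and the third lay under both floors. Cox8a was thus lower in the external pool at both measured probe sets. Cox6a1 read 8438 and 5867 (-0.52) and Cox5b read 8208 and 5846 (-0.49). Of the other Cox5b probe sets, 3 were at -0.41, -0.30 and -0.24, and 1 near the floors, at 44.2 and 66.5, pointed the other way with a bound of 0.49. Cox7a2, the widely expressed form of subunit VIIa, read 10000 and 7467 (-0.42). These 3 genes lay in the brightest signal class, and after loess they were at -0.18, -0.15 and -0.05. Cox5a was at -0.42, Cox6b1 at -0.40, Cox6c at -0.32 and Cox4i1, a large subunit that regulates the enzyme's response to ATP, at -0.30. After loess all 8 remained below 0 with a median of -0.15, Cox8a at -0.57, and the medians of complexes I, II and III were -0.09, -0.04 and -0.03. With 1 array for each pool, no test of the difference between complexes could be made.

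Where a member had several probe sets measured on both arrays, the brighter one usually gave the lower ratio. This was so in 25 of 28 members, against 60.9% of 4315 genes of any kind. The median difference, brightest minus dimmest, was -0.26 for the members and -0.12 for all genes. Uqcrb shows it, since its bright probe set read 9592 internal and 7294 external (-0.40) and its dim one 259 and 308 (0.25). Cox6c read 1965 and 1571 (-0.32) at its brighter and 1207 and 1319 (0.13) at its dimmer probe set. In 8 of the 28 members the dimmest probe set was above 0 and the brightest below it, so the direction of those genes depends on the probe set read. After loess the brighter probe set was the lower one in 20 of 28 members, with a median difference of -0.09, and in 50.6% of all genes. Over all 90 member probe sets with a value, 71 were below 0 and 19 above, against 43.6% of 23896 probe sets of any kind below 0.

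**Figure D3:**
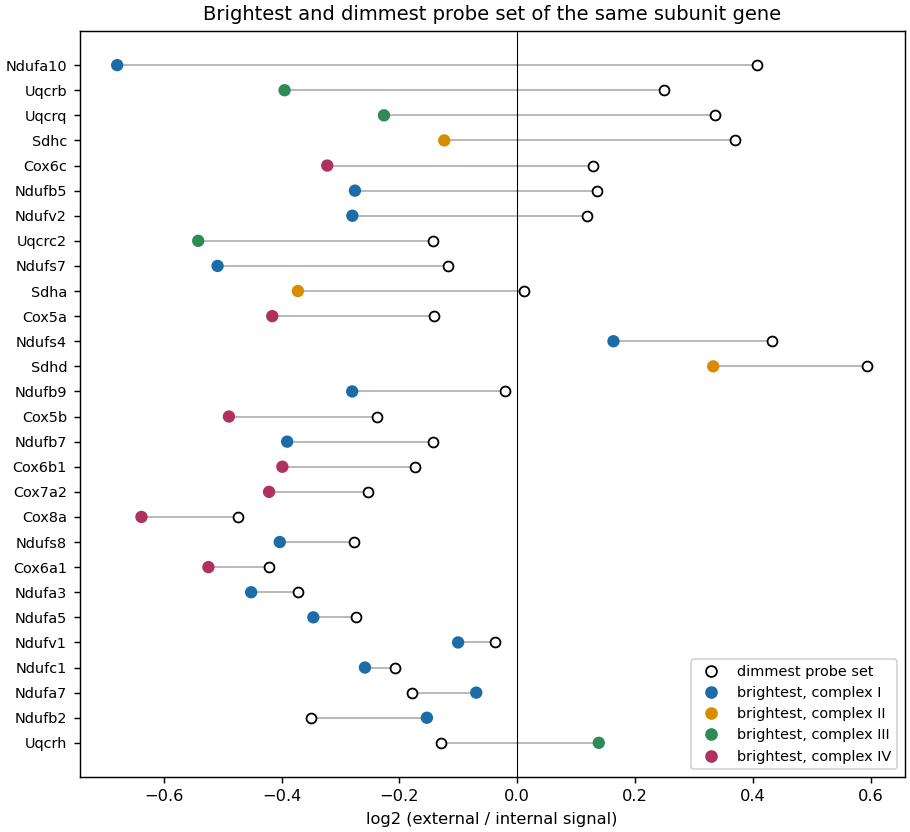
Log2 ratio of external over internal signal at the brightest (filled, coloured by complex) and dimmest (open) probe set of the same gene, for the 28 members with at least 2 probe sets measured on both arrays. The filled point lies left of the open one in 25 genes, the exceptions being Ndufa7, Ndufb2 and Uqcrh.

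All 3 muscle isoforms read lower in the external pool, Cox6a2 by over 2-fold and the other two at signals near the floors. Cox6a2, the isoform of subunit VIa in heart and skeletal muscle, read 546 in the internal and 237 in the external pool, or 2.31-fold higher in the internal pool (-1.21). Its second probe set read 174 and 9.4, the latter under the floor, which makes it at least 3.32-fold higher in the internal pool. Both probe sets of Cox6a2 thus read higher in the internal pool, though the second is open to cross-hybridisation by its suffix. Cox7a1, the muscle isoform of subunit VIIa, read 69.5 and 55.7 (-0.32), barely above both floors. Cox8b, the muscle isoform of subunit VIII, read 61.5 and 40.6, so that only a bound could be given, at least 1.18-fold higher in the internal pool. The Cox7a1 difference was smaller than the spread of 0.34 between probe sets of all genes, and the bound of Cox8b leaves the size of its difference unknown.

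Against the widely expressed partner, Cox6a2 was lower than Cox6a1 by 0.68 on the log2 scale of the ratio, and by 1.05 after loess. The ratio of Cox7a1 was 0.10 above that of Cox7a2, a difference that turned to -0.43 after loess and -0.46 after quantile normalization. The bound of Cox8b stood 0.40 above the ratio of Cox8a, and being a bound it sets no order between the pair. Of the isoforms measured on both arrays, Cox6a2 thus kept the direction of its difference from its partner under both corrections and Cox7a1 did not.

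**Figure D4:**
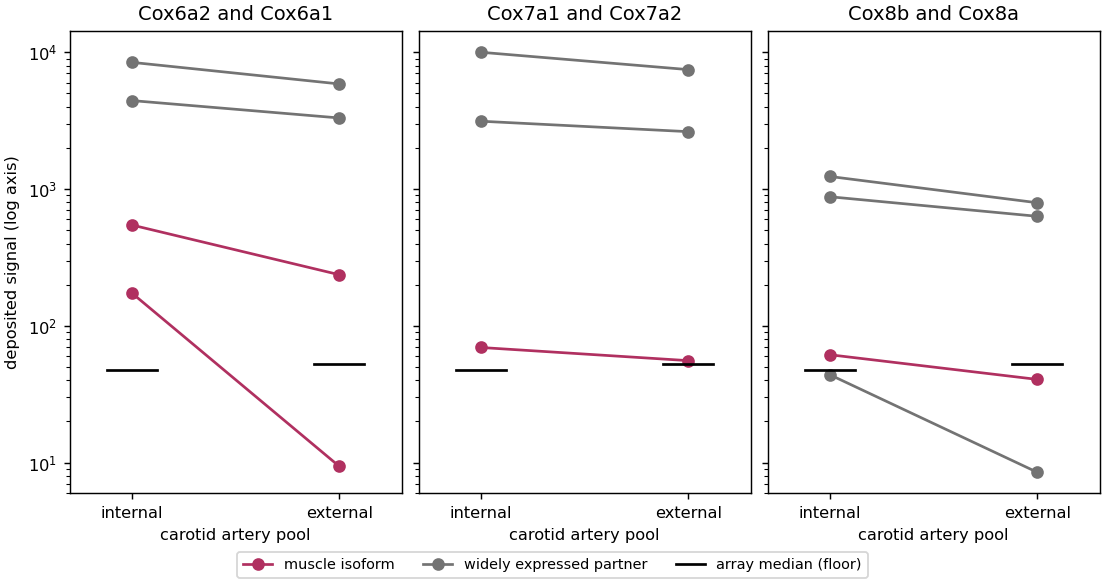
Deposited signal (log axis) in the internal and external carotid pools for every probe set of each muscle isoform (red) and its widely expressed partner (grey), with short black lines at the array medians used as floors. Both Cox6a2 probe sets drop between pools, to 237 and 9.4, whereas Cox7a1 and Cox8b lie near the floors.

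Skeletal muscle markers were also higher in the internal pool. Of 31 listed, 30 had a value, all below 0 with a median of -2.12, and 27 were at least 2-fold higher in the internal pool. Their signals summed to 37437 in the internal and 7998 in the external pool, and none was at 0, though Myh2 lay under both floors. With the median over probe sets the list's median was -2.06, with Des at -1.05 instead of -2.44 and Ckm at -0.06 instead of -0.60. Cox6a2, at -1.21, differed less than the median marker, and the part of the muscle cells in its difference was not tested. In bulk samples fewer muscle cells and less RNA per cell cannot be told apart. Cardiac markers had a median of -0.37 over the 10 of 15 with a value. Of these, 4 were at least 2-fold higher in the internal pool. Lowest were Myl4 (-2.46) and Tnnt2 (-2.27), which embryonic skeletal muscle also makes. With the median over probe sets Myl4 was at -1.31 and Tnnt2 at -2.20. Also past 2-fold were Sln, 2.82-fold higher, and Myh6, at 104.8 internal and 30.3 external, the latter under the floor. Nkx2-5 had a bound of -0.46, while Nppa, Myl7, Tnni3 and Gata4 lay under both floors. Of the 10, 3 were above 0, with Tbx20 at 0.65 (a bound), Nppb at 0.26 and Myl2 at 0.11. The cardiac signals summed to 4080 and 1249. Brown adipocytes also use Cox7a1 and Cox8b, and their defining genes Ucp1 and Cidea lay under both floors, at 1.8 and 2.0 in the internal pool. The brown adipocyte list had a median of 0.16 over the 6 of 12 with a value, and summed signals of 1118 and 1221. Its median was -0.01 with the median over probe sets, and 0.04 after loess over the same 6 genes. Highest on this list were Prdm16 at 0.32 and Ebf2 at 0.19, or 0.41 and -0.25 with the median over probe sets.

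Other genes of muscle energy supply were mixed. Without the 3 members, the list had a median of -0.25 over 13 genes, with 3 at least 2-fold higher in the internal pool. Pgam2, the muscle phosphoglycerate mutase, was at least 3.18-fold higher, and Eno3, muscle enolase, was 2.23-fold higher. Atp2a1, the calcium pump of fast muscle, was 3.06-fold higher. Highest were Fabp3, a fatty acid binding protein of muscle, at 0.52 and Pygm, muscle glycogen phosphorylase, at 0.18. Ckm, muscle creatine kinase and also a skeletal muscle marker here, read 111 and 73.2 (-0.60), but was at -0.06 with the median over its 2 probe sets. Mb, myoglobin, was near the floors at 62.1 and 40.4. Slc25a4, the ADP/ATP carrier of muscle and other tissues, read 3470 and 3355 (-0.05), against 0.39 for its relative Slc25a5.

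Subunits of complex I not on the member list had a median of -0.20 over 10 genes, with 6 below 0, from Ndufv3 at -0.55 and Ndufa13 at -0.44 to Ndufs5 at 0.54 and Ndufa4 at 0.55. This median was near 0 after loess and quantile normalization (both -0.004), and above 0 with the median over probe sets (0.02) and without cross-hybridising probe sets (0.11). Ndufa4 is now placed in complex IV. Other complex III and IV subunits had a median of -0.34 over 7 genes, with the testis isoform gene Cox6b2 lowest at -0.69 and Uqcr10 next at -0.43. Highest were Cox8c at 0.35 and Cox7a2l, a supercomplex factor, at 0.04. After loess the median of this list was -0.25, against -0.08 for the widely expressed members. No gene of either list passed 2-fold.

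ATP synthase, which uses the proton gradient that the chain builds, had 16 measured genes with a median of -0.17, and 13 were below 0. Atp5g1, one of 3 genes for the ring subunit c, was lowest at -0.57, followed by Atp5k at -0.41, and Atp5g3 and Atp5o were highest at 0.03. After loess the list's median was 0.01. The list of tricarboxylic acid cycle enzymes also holds subunits of pyruvate dehydrogenase, Dlat among them. It had a median of -0.06 over 16 genes (-0.04 after loess), with 11 below 0, from Mdh2 at -0.45 and Idh3g at -0.23 to Idh3a at 0.14 and Dlat at 0.20. Cycs, the cytochrome c that links complexes III and IV, read 6250 and 5184 (-0.27), and 0.04 after loess. The 1 mitochondrially encoded gene with a probe set of its own here, ND5, was at -0.29, and 0.05 after loess.

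Assembly factors, which build the complexes without staying in them, had a median of 0.05 over 31 genes, with 18 above 0. Ndufaf2, a complex I assembly factor, was 2.01-fold higher in the external pool (1.01), at 106 internal and 213 external. After loess it was at 0.92 and after quantile normalization at 0.93, under 2-fold in both. Nubpl, which delivers iron-sulfur clusters to complex I, was at 0.73. Lowest were Cox19 at -0.40 and Bcs1l, which inserts the Rieske protein into complex III, at -0.37. Regulators of mitochondrial gene expression had a median of -0.14 over 13 genes, and none passed 2-fold. Nrf1 was lowest at 173 internal and 118 external (-0.56), followed by Ppargc1b at -0.51, while Gabpa and Tfam were both at 0.23. With the median over probe sets Tfam was at -0.06 and Gabpa still at 0.23. Ppargc1a, a coactivator of mitochondrial genes, was under the floor in the internal pool, with a bound of 0.65.

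Markers of other cells in the dissection differed too. Sympathetic neuron markers had a median of 2.19 over the 12 of 16 with a value, and summed signals of 2350 internal and 8998 external. Markers of glomus cells, the oxygen sensors of the carotid body, had a median of -0.07 over the 7 of 11 with a value, and summed signals of 3361 and 4413. The sign of this median turned with the floor, to 0.08 at the 25th percentile, 0.01 with no floor, 0.02 with a pseudocount and 0.31 at the 75th percentile. This list includes the subunit genes Ndufa4l2 at -0.21 and Cox4i2, measured only in the internal pool, with a bound of -0.38. Th, which is on both lists, was the highest glomus gene at 3.30, and Dbh the highest sympathetic gene at 4.40. With the median over probe sets Dbh was at 3.11, below Cartpt at 4.39, and the sympathetic list had a median of 2.11. Endothelial markers had a median of 0.44, smooth muscle markers of 0.31, erythroid markers of -0.51 and macrophage markers of -0.52. Smooth muscle markers were mixed, with 6 above 0 and 4 below, and a median of 0.09 with the floor at the 75th percentile. Their signals summed the other way, to 18632 internal and 16190 external. After loess the medians were 0.36 for endothelial, 0.33 for smooth muscle, -0.29 for erythroid and -0.41 for macrophage markers. The part of any of these cell types in the subunit differences was not tested.

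**Figure D5:**
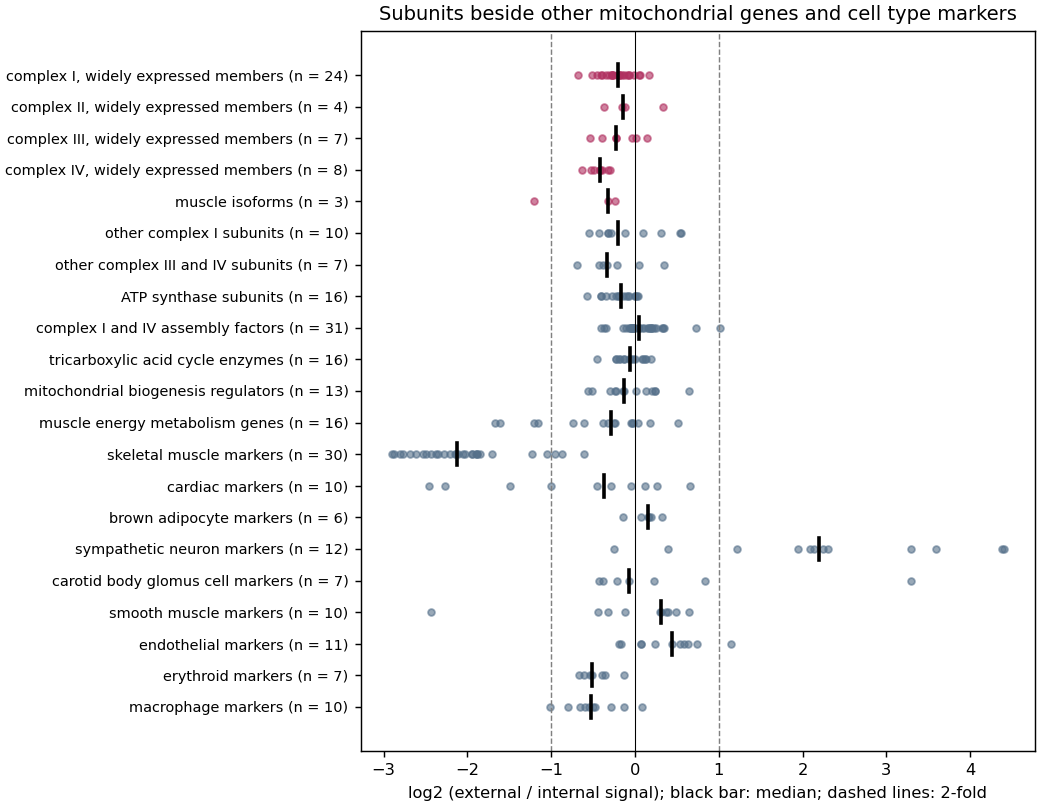
Log2 ratio of external over internal signal for every gene with a value in the member groups (red) and in the other lists (blue), bounds included, with black bars at the medians and dashed lines at 2-fold. The respiratory chain groups cluster just below 0, while skeletal muscle markers center on -2.12 and sympathetic neuron markers on 2.19.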

How the data were processed

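Expression was measured on 1 Affymetrix mouse array for each of 2 pools. The submitters' processing notes name GCOS 1.4 and MAS5, and the values the authors deposited are, per probe set, a signal intensity on a linear scale. Their 2% trimmed mean was 150 on both arrays, so they were used as deposited. No depth applies to arrays, and their number limits the precision.

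Of 45101 probe sets, 64 controls were left out. The platform annotation gave 1 gene for 34945 probe sets and several for 932, and 9160 were not listed. A RefSeq table (GRCm38.p6) supplied current symbols where the gene number matched. A gene's value is that of its brightest probe set, by the mean of both signals. Floors, ratios and bounds are defined with the results, and a bound pointing against the measured side gave no value, leaving 12419 genes. Pooled spreads come from 10950 probe sets of 4315 genes.

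The members and gene lists were chosen with earlier results of these data known. By rule any member could be named, as could the highest and lowest genes of other lists. This rule was not followed for every list. No gene was named from the endothelial, erythroid and macrophage lists, and Rgs5, lowest of the glomus list, was left out. Sln, Myh6 and Nkx2-5 were named outside the rule, being neither the highest nor the lowest cardiac genes. Eno3, Ckm, Mb, Nppa, Myl7, Tnni3, Gata4, Myl2, Ucp1, Cidea, Myh2, Ndufa4l2 and Cox4i2 were added after their values were seen. The motifs, too, were chosen with array results known. Alternatives were centring, quantile normalization, loess (span 0.3), floors at the 25th and 75th percentiles, dropping the floor, adding each floor as a pseudocount, taking a gene's median probe set, leaving out suffixes _x_at and _s_at, which mark possible cross-hybridisation, thresholds of 1.5-fold and 3-fold, and counting probe sets. Ratios were tested on simulated data, with known folds put into bright genes only and no trend of ratio with signal. Folds of genes near the floors, and bounds, were thus not tested. Loess came from statsmodels 0.14.6, with pandas 2.3.3 and numpy 2.4.6 under Python 3.11.15.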

Additional observations from a re-analysis of the deposited data

How the results depend on the processing

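The number of members past 2-fold toward the internal pool was 1 as reported and under 9 other settings, and became 3 at a 1.5-fold and 0 at a 3-fold threshold. No member was 2-fold higher in the external pool under these settings. Cox6a2 stayed past 2-fold in the 9 settings, with log2 ratios from -1.47 (median over probe sets) to -1.04 (pseudocount). The median of the widely expressed members stayed below 0, from -0.31 after centring to -0.08 after loess, and its distance from the median of all genes ran from -0.34 with no floor to -0.09 after loess. Complex IV had the lowest median of the 4 complexes in all 9. After quantile normalization it was nearly level with complex I, at -0.12 against -0.10, and 7 of the 8 widely expressed complex IV members with a value were below 0. Ndufa10 was at -0.14 with the median over probe sets. Without cross-hybridising probe sets Sdha was at 0.01 and Uqcrq at 0.34, and Ndufa2 had no value. Quantile normalization put Uqcrb at 0.05 and Cox7a2 at 0.01. A floor raised to the 75th percentile left Cox7a1 and Cox8b without a value, and Cox8b was at -0.60 with no floor. The cause of these changes was not tested. No paired analysis was possible because each group holds 1 array, and for the same reason no array could be left out.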
